A study of Sus scrofa with 4 samples.

Results

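The complement genes described here are 9 protein-coding genes, C3, CFD, CFB, CFI, C1R, C1S, C7, SERPING1 and CD59, which were chosen by name from the 16192 protein-coding genes measured during the differentiation of porcine subcutaneous preadipocytes. Preadipocytes of male Chinese Erhualian piglets aged 5 days were grown to confluence (D0). They then received dexamethasone, 3-isobutyl-1-methylxanthine and insulin until D2 and insulin alone until D4, and were kept in growth medium until D8. For each of D0, D2, D4 and D8, total RNA of 3 piglets was pooled in equal amounts before a single rRNA-depleted strand-specific library was made. Each stage therefore has 1 library and no replicates, so that a stage cannot be told apart from its library and stages could not be tested against each other. Expression is given as FPKM, the fragments assigned to a gene, divided by gene length and by the library total. Because FPKM is per length, levels of different genes can be set side by side.

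Complement is a cascade of serum proteases and binding proteins that marks and lyses targets. In the classical pathway the proteases C1r and C1s are held by C1q, C1r activates C1s, and C1s cleaves C4 and C2. C1 inhibitor, encoded by SERPING1, inactivates both proteases. In the alternative pathway factor D, encoded by CFD and also called adipsin because it was first described as a fat cell product, cleaves factor B (CFB) bound to C3b, the active fragment of the central component C3. Factor I (CFI) degrades C3b and C4b, C7 is a component of the membrane attack complex, and CD59 is a membrane-anchored protein that blocks the assembly of that complex. Liver makes most of the serum proteins, and adipose tissue is a known extrahepatic source of several of them.

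The library totals behind FPKM at D0, D2, D4 and D8 were 75387428, 54987801, 74358922 and 54128151 fragments. The markers of adipocytes, 10 genes such as ADIPOQ and PLIN1, had a summed FPKM of 126, 511, 1810 and 2131 at D0, D2, D4 and D8. Of these markers, 8 of the 8 that were reliably expressed were at least 2-fold above D0 at each later stage. Among all reliably expressed genes, 6.67%, 10.4% and 3.60% were at least 2-fold above D0 at D2, D4 and D8. From D4 to D8, 4 of these 8 were at least 2-fold lower and 1, FABP4, was higher (853 and 1557 FPKM), with a median log2 ratio of -0.91. LEP, which was not reliably expressed, was at 0.291, 0.156, 0.0269 and 0.314. CIDEC, likewise not reliably expressed, was higher at D8 (54.6 FPKM) than at D4 (5.01), with a log2 ratio of 3.44 (3.32 to 3.58). Stromal markers summed to between 6064 and 6678 in all 4 libraries, but single genes differed, with VIM at 2952 FPKM at D0 and 766 at D4 and COL3A1 at 491 and 2058. At D4 vs D0, 4 of the 9 stromal markers were at least 2-fold higher and 1 lower, against 10.4% and 8.81% of all genes. LUM, DCN and PDGFRB were highest at D4. For leukocytes, 11 of 13 markers were listed and summed to 4.66, 8.11, 9.62 and 6.44, highest at D4, with PTPRC at no more than 0.0712 and CD68 at no more than 0.223. CD14 was the largest part of each sum, and only CD14 and FCER1G were highest at D4. AIF1 (1.05 FPKM), TYROBP (0.818) and PTPRC were highest at D8, where CSF1R was at 0. The 2 leukocyte markers that were reliably expressed were CD14 (3.14, 5.64, 7.54 and 2.78 FPKM) and CD163 (0.270, 1.42, 1.01 and 1.38). Both were at least 2-fold higher at D4 than at D0, against 10.4% of all genes. The part of these cell types in the values below was not tested. The 7 endothelial markers summed to between 1.20 and 2.81, nearly all of it PECAM1, with VWF at no more than 0.0137. In bulk RNA, fewer cells of a type and less RNA per cell cannot be told apart.

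Reads on the 9 complement genes made up 307 per 1000000 fragments in the D0 library (95% Wilson interval 303 to 311) and 559 (553 to 566), 799.8 (793 to 806) and 551 (544 to 557) in those of D2, D4 and D8. These intervals, like all others given below, cover counting error only. C1S alone accounted for 43.4%, 61.5%, 66.4% and 64.7% of these reads, and C1R, C1S, SERPING1 and CD59 together for 92.9% to 98.1%. The complement genes thus covered a wide range of levels, with C1S as high as 178 FPKM at D4 and C3 at or under 0.223 FPKM in every library. In order of level at D4, C1S was followed by C1R, SERPING1, CD59, C7, CFB, CFD, CFI and C3, of which SERPING1 and CD59 stood close together at 25.2 and 24.3. At D0 the order was CD59, C1S, C1R, SERPING1, CFD, C7, CFB, CFI and C3.

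**Figure D1:**
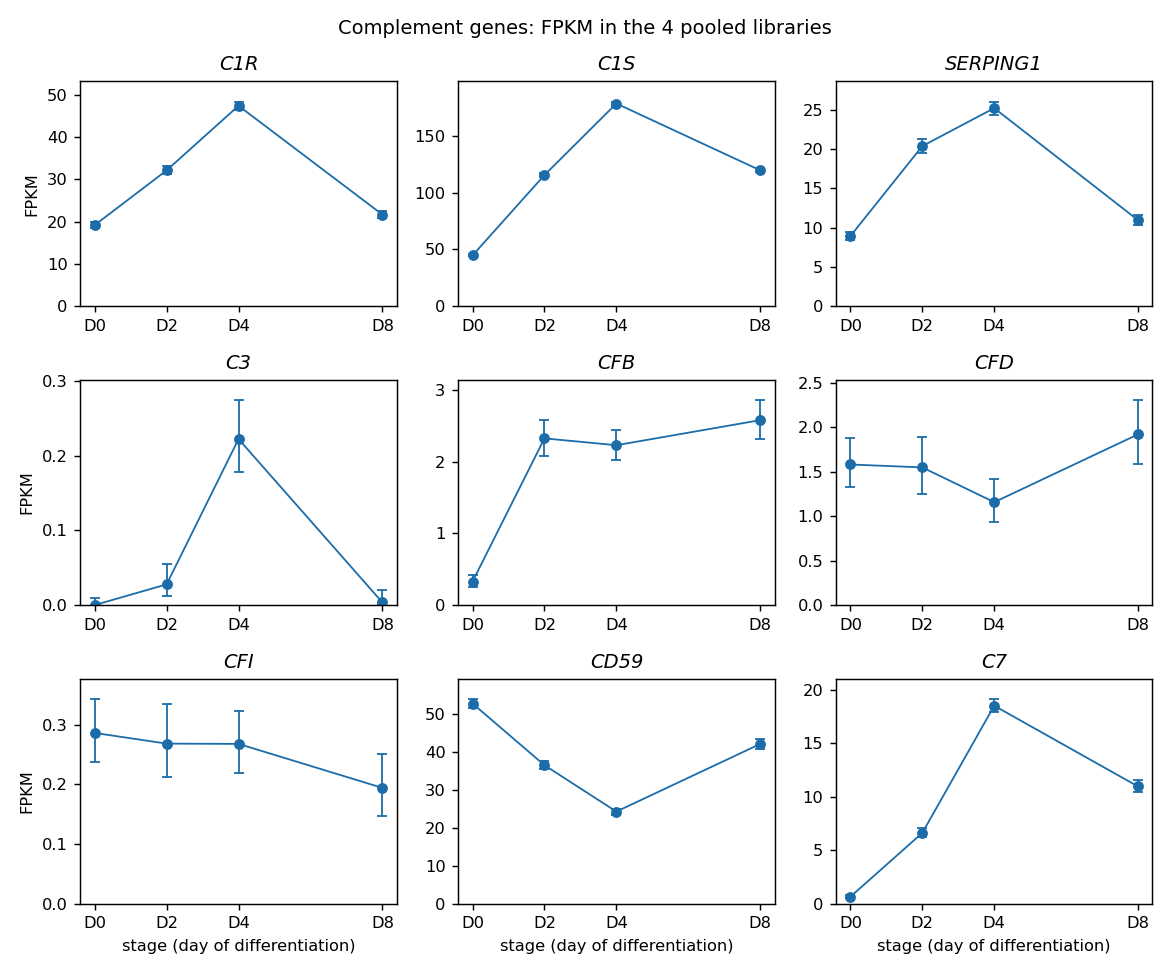
FPKM (vertical axes, each from 0 and on its own scale) of the 9 complement genes in the libraries of D0, D2, D4 and D8 (horizontal axes, days), with 1 library a stage and bars for the 95% counting interval from the number of reads. C1R, C1S, SERPING1, C3 and C7 were highest at D4 and CD59 was lowest there. CFB was at 0.327 at D0 and stayed near its D2 level of 2.32 at D4 and D8. CFD and CFI differed by less than 2-fold between stages.

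Of the 9 genes, 7 were reliably expressed, that is, 3 or more of the 4 libraries reached 1 FPKM, as were 9191 of all protein-coding genes. C3 and CFI were not. Differences between stages were expressed as ratios of FPKM + 0.01 on the log2 scale, and genes were counted that differed at least 2-fold up or down, which is the ratio the study asked for, without the FDR it asked for as well. C7 and CFB were under 1 FPKM at D0 and could only pass the filter by being higher later, so that their place in the counts below is partly set by the filter. The same holds for the markers LIPE (0.808 FPKM at D0) and CD163 (0.270) in the counts above.

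Between D2 and D0, 4 of the 7 reliably expressed complement genes, C1S, SERPING1, CFB and C7, were at least 2-fold higher, against 6.67% of all reliably expressed genes. None of the 7 was at least 2-fold lower, against 10.1% of all genes. Their median log2 ratio was 1.19, and that of all genes was -0.03. Between D4 and D2 only C7 was past the threshold, with 1 of 7 higher against 4.24% and 0 of 7 lower against 0.838%, and the median was 0.31 beside 0.09 for all genes.

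Between D8 and D4 none of the 7 genes was at least 2-fold higher, against 4.43%, while C1R and SERPING1 were at least 2-fold lower, against 10.1%. The median was -0.58, and all genes together had a median of -0.21. This comparison depended on the scaling between libraries. As deposited, 30.5% of all genes past the threshold were higher at D8. After scaling by the median of ratios, which brings the median of all genes to -0.00, 52.0% were higher. With that scaling the log2 ratios of C1R and SERPING1 were -0.92 and -0.99, short of 2-fold, and CD59 passed the threshold at 1.005.

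Against D0, the D4 library had 5 of 7 genes at least 2-fold higher (C1R, C1S, SERPING1, CFB and C7), against 10.4% of all genes, and 1 of 7, CD59, at least 2-fold lower, against 8.81%. The median log2 ratio at D4 was 1.497 beside 0.06 for all genes. At D8, 3 of 7 genes (C1S, CFB and C7) were still at least 2-fold above D0, against 3.60% of all genes, and none was 2-fold below, against 3.68%. The median at D8 was 0.29 beside -0.18 for all genes. Scaling by the median of ratios moved the share of higher genes among all those past the threshold from 49.5% to 66.1% for D8 vs D0, and the complement genes counted were 3 and 0 as before.

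**Figure D2:**
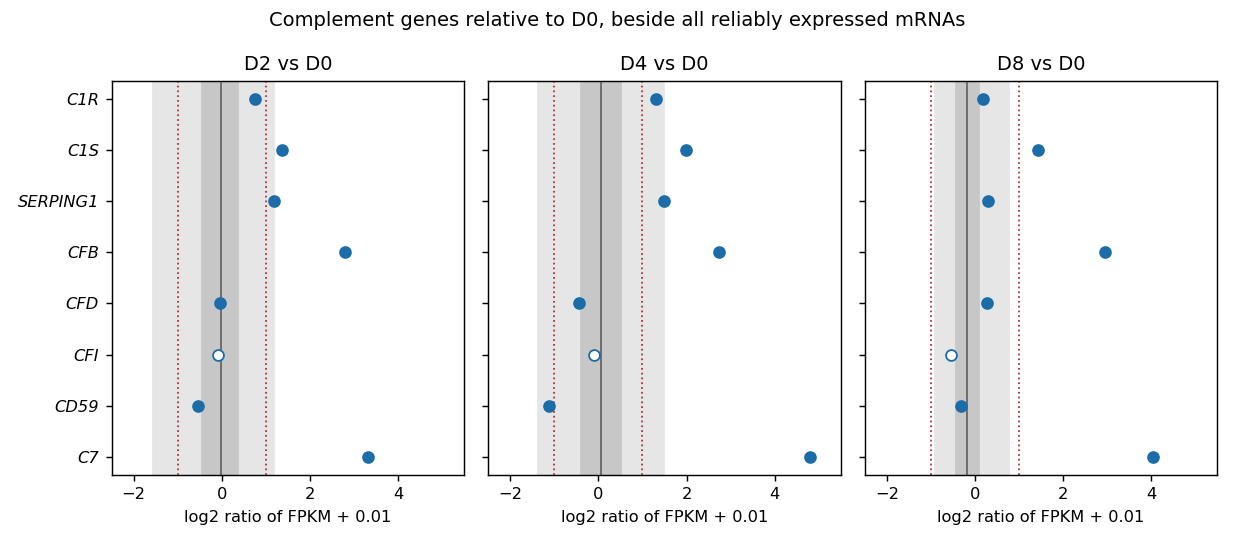
Log2 ratio of FPKM + 0.01 to D0 (horizontal axes) at D2, D4 and D8 for 8 complement genes, with filled points for reliably expressed genes, an open point for CFI, grey bands for the 25th to 75th and 5th to 95th percentiles of all reliably expressed mRNAs, a grey line for their median and dotted lines at 2-fold. C3 is left out because it had no read at D0. C1S, C7 and CFB lie beyond the 95th percentile of all mRNAs (1.17, 1.497 and 0.76) in each panel, and CFD stays within the bands. C7 and CFB, under 1 FPKM at D0, could only pass the filter by being higher later, so that their place is partly set by the filter.

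Among the 9 genes, 5 reached their highest level at D4 (C1R, C1S, SERPING1, C3 and C7), 2 at D0 (CFI and CD59), 2 at D8 (CFB and CFD) and none at D2. For CFB, CFD and CFI the highest stage was not resolved beyond counting error. Their log2 intervals were -0.07 to 0.37 (CFB, D8 vs D2), -0.09 to 0.65 (CFD, D8 vs D0) and -0.52 to 0.33 (CFI, D2 vs D0). Of all reliably expressed genes, 37.3% were highest at D4, 36.5% at D0, 16.7% at D2 and 9.51% at D8. Within the 7 reliably expressed complement genes, the number highest at D4 was 4.

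Of the classical pathway proteases, C1S was the highest of the 9 genes at D2, D4 and D8, and C1R was below CD59 in all libraries except D4. C1S (chr5:63670309-63681466, minus strand, Sscrofa11.1) encodes the protease that cleaves C4 and C2. D0, D2, D4 and D8 had 44.7, 115.5, 178 and 119.7 FPKM, from 10043 to 39509 reads a library, and at D4 it ranked 317 among all 16192 protein-coding genes. It was lowest at D0 and highest at D4, and D2 and D8 lay close together. The log2 ratio to D0 was 1.37 at D2 (1.33 to 1.40), 1.996 at D4 (1.96 to 2.03) and 1.42 at D8 (1.38 to 1.45).

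C1R (chr5:63644097-63655149, plus strand) encodes the protease that activates C1s. FPKM values of 19.2, 32.1, 47.4 and 21.7 were found at D0, D2, D4 and D8, from 2882 to 8656 reads. The D8 library was thus near the D0 level, with a log2 ratio of 0.18 (0.10 to 0.25), whereas D4 was 1.30 above D0 (1.25 to 1.36) on the same scale. From D4 to D8 the log2 ratio was -1.13 (-1.19 to -1.07).

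SERPING1 (chr2:13324160-13338826, minus strand), which encodes the inhibitor of both proteases, had 8.93, 20.4, 25.2 and 10.96 FPKM at D0, D2, D4 and D8, from 1124 to 3555 reads. Like C1R it was high at D2 and D4 and near its D0 level at D8. Its log2 ratio to D0 was 1.19 at D2 (1.09 to 1.29), 1.497 at D4 (1.41 to 1.59) and 0.29 at D8 (0.18 to 0.41). From D4 to D8 it was -1.20 (-1.30 to -1.11).

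C1R and C1S lie 15159 bases apart on chromosome 5, on opposite strands and with their 3′ ends facing each other. Ratios of FPKM within a library do not depend on scaling between libraries. The level of C1S at D0 was 2.33 times that of C1R (95% counting interval 2.24 to 2.42), and at D2, D4 and D8 it was 3.60 (3.48 to 3.72), 3.77 (3.68 to 3.85) and 5.52 times (5.31 to 5.74). Relative to SERPING1, the level of C1S was 5.01 (4.73 to 5.31), 5.66 (5.42 to 5.93), 7.07 (6.84 to 7.32) and 10.9 (10.3 to 11.6) in the 4 libraries in order of stage. The protease C1S was thus higher relative to its inhibitor in each later library than in the one before, and relative to its partner the intervals of D2 and D4 overlapped while D0 lay below and D8 above them. C1R relative to SERPING1 ranged from 1.58 at D2 to 2.15 at D0, and was 1.98 at D8 (1.85 to 2.12).

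**Figure D3:**
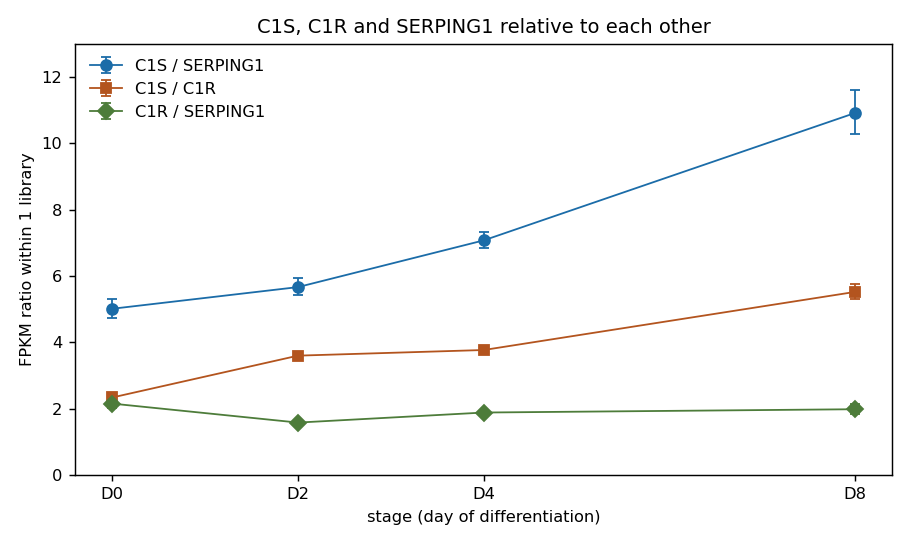
Ratio of FPKM between 2 genes of the same library (vertical axis) at D0, D2, D4 and D8 (horizontal axis, days), with bars for 95% counting intervals. C1S relative to SERPING1 went from 5.01 at D0 to 10.9 at D8 and relative to C1R from 2.33 to 5.52, while C1R relative to SERPING1 stayed between 1.58 and 2.15.

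C3, the central component (chr2:72431470-72471622, plus strand), was barely detected. No read was found at D0, 8 reads at D2, 87 at D4 and 1 at D8, which is 0, 0.0277, 0.223 and 0.00352 FPKM. With 3 reads taken as the smallest number the depth can show, the floor for C3 at D0 was 0.00758 FPKM. The level at D4 was 29.4 times that floor and the level at D2 was 3.66 times, without counting error at D4 and D2. With counting error, the lower limits of the log2 ratios to D0 were 4.55 at D4 and 1.23 at D2. D4 was 8.04-fold above D2, with a log2 interval of 1.97 to 4.26. The ratio of D8 to D4 was 0.0158, and its log2 interval, from -11.30 to -3.47, is wide because it rests on 1 read at D8.

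CFB (chr7:24034077-24040523, plus strand), the protease of the alternative pathway convertase, had 0.327, 2.32, 2.23 and 2.58 FPKM in order of stage, from 65, 337, 437 and 368 reads. It was low at D0 and 6.82-fold to 7.89-fold higher in the other 3 libraries. The later 3 differed little, with log2 ratios of -0.06 for D4 vs D2 (-0.27 to 0.15) and 0.21 for D8 vs D4 (0.01 to 0.41). C2, the classical pathway counterpart of factor B, ends 34 bases before CFB on the same strand. Its FPKM was 0.685, 2.68, 3.18 and 2.75 at D0, D2, D4 and D8, likewise lowest at D0, with log2 ratios to D0 of 1.95, 2.20 and 1.99. CFB relative to C2 was 0.477 at D0 (0.349 to 0.647) and 0.702 to 0.938 in the later libraries. With 34 bases between them, reads that run across the boundary of the 2 genes cannot be assigned with certainty. NELFE, a transcription elongation factor gene on the opposite strand, lies 1 base after CFB and had 28.0, 17.5, 17.9 and 21.4 FPKM in order of stage, highest at D0, where CFB was lowest.

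CFD (chr2:77509792-77511988, minus strand), the protease that cleaves factor B, was low throughout, at 1.58, 1.55, 1.16 and 1.92 FPKM at D0, D2, D4 and D8, from 95 to 133 reads. No library was 2-fold apart from another, and the highest was 1.66 times the lowest. The log2 ratio to D0 was -0.03 at D2 (-0.43 to 0.36, and 0.01 after median-ratio scaling), -0.45 at D4 (-0.84 to -0.06) and 0.28 at D8 (-0.09 to 0.65). In the same libraries the 8 reliably expressed adipocyte markers were at least 2-fold above D0, as given above. CFD lies inside MED16, a Mediator subunit gene on the opposite strand, which had 2.85, 3.02, 3.74 and 2.16 FPKM. The library kit keeps strand, but whether strand was used in counting is not given in the sources used here, and the part of MED16 reads in the CFD values was not tested.

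CFI (chr8:112430824-112470844, plus strand), the protease that degrades C3b, had 0.286, 0.268, 0.268 and 0.194 FPKM at D0, D2, D4 and D8, from 57 to 117 reads. All 4 values were under the filter and the highest was 1.47 times the lowest. The log2 ratio of D8 to D0 was -0.54 (-1.04 to -0.09).

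CD59 (chr2:27186587-27207303, plus strand), the inhibitor of the membrane attack complex, had 52.7, 36.5, 24.3 and 42.1 FPKM at D0, D2, D4 and D8, from 3548 to 7814 reads. It was the only one of the 7 reliably expressed genes with its lowest reading at D4 and its highest at D0. The log2 ratio to D0 was -0.53 at D2 (-0.59 to -0.48), -1.12 at D4 (-1.18 to -1.06) and -0.33 at D8 (-0.38 to -0.27). From D4 to D8 it was 0.79 (0.73 to 0.86).

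C7 (chr16:25846860-25902707, plus strand) is a terminal component that anchors the growing complex in the membrane. Its FPKM in order of stage was 0.656, 6.62, 18.5 and 10.96, from 125, 919, 3475 and 1498 reads, and its rank among all protein-coding genes went from 10085 at D0 to 2648 at D4. It was lowest at D0 and highest at D4, 10.1-fold, 28.2-fold and 16.7-fold above D0 at D2, D4 and D8. These are log2 ratios of 3.31 (3.06 to 3.61), 4.80 (4.56 to 5.09) and 4.04 (3.80 to 4.34). D8 was below D4, with a log2 ratio of -0.76 (-0.84 to -0.67). Relative to CD59 in the same library, the level of C7 was 0.0124, 0.181, 0.762 and 0.260 in order of stage. The other terminal components listed were low. C9 was at 0.220 to 0.344 FPKM from 42 to 56 reads, and C6 at no more than 0.144, its value at D2. C5 was at 0.0290, 0.235, 0.289 and 0.104 in order of stage, from 12, 71, 118 and 31 reads. Its log2 ratio was 2.94 at D4 vs D0 (2.46 to 4.31) and 0.29 at D4 vs D2 (-0.14 to 0.74). Whether C5 was highest at D4 or at D2 was thus not resolved beyond counting error.

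Circular RNAs offered a further readout of the same genes. Among 8623 circRNAs, 1 lay within a complement gene, ssc_circ_0000978 on the strand of SERPING1 (chr2:13331922-13334236). It was listed at 0 SRPBM, the junction reads scaled by all mapped reads, at D0, D2 and D4 and at 16.8 at D8. That value is 2 junction reads, under the floor of 3, so no difference between stages was detectable at this depth.

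The other genes of the complement system were taken from a list of 48 symbols, of which 34 were listed as protein-coding and 11 were reliably expressed. Of these 11, 4 were at least 2-fold higher and 1 lower at D2 vs D0 (6.67% and 10.1% of all genes), with a median log2 ratio of 0.29 (-0.03 for all genes). At D4 vs D2, 1 was higher and 2 were lower (4.24% and 0.838%), with a median of -0.04 (0.09). At D8 vs D4, 1 was higher and 2 were lower (4.43% and 10.1%), with a median of -0.17 (-0.21). Against D0, 3 were higher and 1 was lower at D4 (10.4% and 8.81%), with a median of 0.28 (0.06), and 2 were higher and 2 lower at D8 (3.60% and 3.68%), with a median of -0.08 (-0.18). C2 and C1QC were under 1 FPKM at D0 and C1QA at D4, and they passed the filter only through the other libraries. Their place in these counts is therefore partly set by the filter.

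Recognition molecules covered a wide range. FCN2, a ficolin that binds sugars and starts the lectin pathway, had 5.73, 11.7, 65.6 and 68.2 FPKM at D0, D2, D4 and D8, from 512 to 5787 reads. Unlike C1R and SERPING1 it was as high at D8 as at D4, with log2 ratios to D0 of 3.52 (3.39 to 3.65) and 3.57 (3.44 to 3.71). COLEC12, a membrane collectin, was at 9.58, 39.5, 44.5 and 9.06, high at D2 and D4 and back near the D0 level at D8. MASP1, the protease that ficolins carry, stayed between 3.33 and 4.33, so that FCN2 relative to MASP1 was 1.46 at D0 and 20.5 at D8. The C1q chains were low. C1QA was at 1.05, 1.28, 0.582 and 1.37, C1QC at 0.685, 2.77, 1.09 and 1.20, and C1QB at no more than 0.364.

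C1RL, a C1r-like protease gene that ends 4031 bases before C1R on the same strand, was at 2.50, 2.45, 1.39 and 1.23 FPKM and did not share the D4 maximum of C1R. C4A was at 0.296, 0.260, 1.12 and 1.40. Among the regulators, CD46, a membrane cofactor for factor I, was at 42.5, 20.6, 17.9 and 24.4 FPKM, highest at D0 and lowest at D4 as was CD59, with a log2 ratio of -1.25 at D4 vs D0 (-1.30 to -1.20). CD55, another membrane regulator, was at no more than 0.110. CLU, which encodes the secreted chaperone and complement inhibitor clusterin, was at 331, 306, 256 and 105, with a log2 ratio of -1.66 at D8 vs D0. C1QBP, a mitochondrial protein that can bind C1q, stayed between 68.1 and 88.9.

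**Figure D4:**
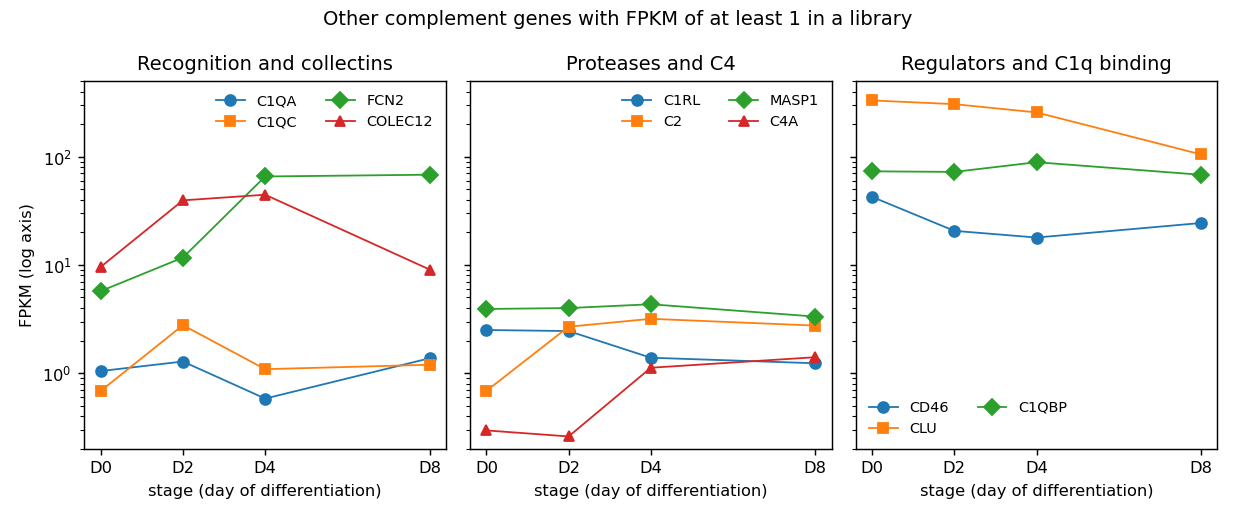
FPKM on a log axis (vertical) of 11 other complement genes with at least 1 FPKM in any library, at D0, D2, D4 and D8 (horizontal axes, days), grouped by role, with 1 library a stage. FCN2 went from 5.73 at D0 to 68.2 at D8, COLEC12 was higher at D2 and D4 than at D0 and D8, C2 was lowest at D0, and CD46 and CLU were highest at D0.

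For each of the 7 reliably expressed genes, the gene with the most similar pattern was taken as the one with the smallest Euclidean distance over the 3 log2 ratios to D0, among 4761 reliably expressed genes outside the complement lists with at least 10 FPKM in one library. The 3 ratios share the D0 library. C1S was nearest to TST, a mitochondrial sulfurtransferase gene with 5.87, 15.9, 24.3 and 16.4 FPKM, at a distance of 0.104. C1R was nearest to PTPRM, which encodes a receptor tyrosine phosphatase (5.39, 9.21, 13.2 and 6.50, distance 0.0997). SERPING1 was nearest to NRP1, which encodes the co-receptor neuropilin (14.1, 31.3, 37.8 and 17.0, distance 0.0956). C7 was nearest to LIPE, the hormone-sensitive lipase gene and one of the adipocyte markers (0.808, 7.15, 31.9 and 10.3), at the larger distance of 0.649. CFB was nearest to PLSCR4, a scramblase family gene (3.46, 28.5, 27.6 and 20.6), at 0.518. CFD was nearest to FAM69A (14.3, 13.5, 10.8 and 18.0) at 0.0909, and CD59 to P3H4, a gene of collagen modification (17.4, 12.0, 7.80 and 13.6), at 0.0405.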

How the data were processed

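Trimmed reads were aligned by the authors to Sscrofa11.1 with HISAT2 2.0.5, and FPKM was deposited for genes. For circRNAs (BWA-MEM and CIRI, at least 2 junction reads) they deposited SRPBM in the same column. The tool that counted reads is not given in the sources used here. Library totals were computed from the FPKM of tRNA and miRNA genes with few reads (32 to 42 a library), and a whole gene length that turns the 4 FPKM values into whole reads was found for 100% of protein-coding genes (tolerance 1e-05). In simulated data, 93.8% of 981 recovered genes had the true reads, and the other 6.22% whole fractions of them. Intervals of ratios are 95% exact Clopper-Pearson intervals from the reads of both libraries or genes, and cover counting error only. Ratios used log2(FPKM + 0.01). Analysis used Python 3.11.15, pandas 2.3.3, NumPy 2.4.6, SciPy 1.17.1 and matplotlib 3.10.9. In simulated data for D2 vs D0, 100% of genes changed 4-fold passed the ratio. The changed genes had at least 1 FPKM at D0, and counting error was the only error simulated. Genes lower than that at D0, such as C3, CFB and C7, were not covered, nor was variation between libraries.

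The 9 genes and the lists were chosen with earlier results of these data known. Named are all 9 genes, the other complement genes with 1 FPKM in any library or where a level beside a result is low, the nearest gene of each, up to 3 acute phase genes and markers that touch a result. C5, C6, C9, C1QB and CD55 were named from the list after their values were seen. Alternatives were pseudocounts 0.1 and 1, no filter or 1 FPKM in all 4 libraries, scaling by the median of ratios or by the protein-coding sum, and ratios of 1.5 and 3. One gene of the complement list enters the counts but is not reported here by name. Promoter and protein sequences were not analysed here.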

Additional observations from a re-analysis of the deposited data

How the results depend on the processing

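No paired analysis was possible because each stage has 1 library, and for the same reason no library could be left out. Of the 170 values recomputed over the 5 comparisons for the complement genes and the list of other complement genes, 128 stayed within 1.5 times the count or within the counting error, 42 moved and no median changed sign. Among single genes, log2 ratios within 0.10 of 0 changed sign for CFD and CFI in D2 vs D0. The cause was not tested unless the setting itself gives it. In D2 vs D0, complement genes at least 2-fold higher numbered 2 with FPKM of at least 1 in all 4 libraries (which removes CFB and C7) and 2 at a ratio of 3. With that strict filter, 5.20% of all genes were at least 2-fold higher. In D4 vs D2, higher genes numbered 2 without a filter, 0 with the strict filter, 2 at 1.5 and 0 at 3, and lower ones 1 at 1.5. In D8 vs D4, median-ratio scaling gave 1 higher and 0 lower, a ratio of 1.5 gave 2 higher, and a ratio of 3 gave 0 lower. In D4 vs D0, 3 were higher with the strict filter and 3 at a ratio of 3, with 0 lower at 3. In D8 vs D0, 1 was higher with the strict filter.

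The median log2 ratio was 0.74 (strict filter) and 1.30 (protein-coding sum) in D2 vs D0, 0.22 in D4 vs D2, -0.37 in D8 vs D4 and 0.45 in D8 vs D0 (all median-ratio scaling), and 1.28 (pseudocount 1) and 1.30 (strict filter) in D4 vs D0. For the other complement genes, leaving out the filter gave 12 higher and 5 lower in D2 vs D0, 4 and 11 in D4 vs D2, 9 and 8 in D8 vs D4, 9 and 8 in D4 vs D0, and 7 and 6 in D8 vs D0. Without the filter, 12.6% of all genes were higher and 17.0% lower in D2 vs D0. The shares of all genes at the other alternative settings and comparisons are not given here, so those counts are not set against them. The strict filter gave 2 higher in D2 vs D0, 0 lower in D4 vs D2, 0 higher in D8 vs D4 and 1 higher in D8 vs D0. A pseudocount of 1 gave 0 lower in D4 vs D2, 0 higher in D8 vs D4 and 1 lower in D8 vs D0, where a pseudocount of 0.1 and median-ratio scaling also gave 1 lower. Scaling by the protein-coding sum gave 0 lower in D2 vs D0. Genes with few reads, C3 and CFI above all, are limited by depth.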

Other observations

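Acute phase proteins are plasma proteins whose level changes in inflammation. Of 11 such genes, 9 were listed and 3, PTX3, SAA3 and LCN2, were reliably expressed. PTX3, a long pentraxin, had 11.3, 172, 396 and 93.3 FPKM at D0, D2, D4 and D8, highest at D4 as were C1R, C1S and SERPING1, and was 35.0-fold above D0 there. SAA3, a serum amyloid A gene, was at 5.87, 17.1, 14.3 and 25.1, lowest at D0 and highest at D8. LCN2, which encodes the iron-siderophore binding protein lipocalin 2, was at 6.23, 13.8, 19.8 and 5.20. All 3 were at least 2-fold above D0 at D2 (6.67% of all genes) and at D4 (10.4%), and 2 of the 3 at D8 (3.60%). From D4 to D8, 2 of the 3, PTX3 and LCN2, were at least 2-fold lower (10.1% of all genes), with log2 ratios of -2.08 and -1.93.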
